A study of Mus musculus with 12 samples.

Results

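Polycomb repressive complex 1 (PRC1) was followed here through 9 genes: the PCGF subunits Bmi1 and Pcgf2, the RING-type ubiquitin ligases Rnf2 and Ring1, the chromodomain readers Cbx2, Cbx6, Cbx7 and Cbx8, and the polyhomeotic subunit Phc2. They were chosen by gene symbol from 55536 annotated mouse genes, and the read counts of all their transcripts were summed. All 9 passed the filter on low counts, as did 18995 genes in all. The libraries are bulk RNA-seq of primary mouse oligodendrocyte precursor cells (OPCs), 12 in number and 3 in each of 4 groups.

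Ctr cells received no inhibitor and no cytokine. EZH2i cells received EPZ011989, an inhibitor of the PRC2 methyltransferase EZH2, at 1.5 µM for 4 days with renewal every 48 h. IFN-γ cells received interferon-γ at 100 ng/ml for 6 h. The combined group received the inhibitor for 4 days and then IFN-γ for 6 h together with fresh inhibitor. All groups came from brains of P4 to P6 pups (postnatal days 4 to 6) of both sexes that were pooled, so a library is a pool and not an animal. All carried Sox10:Cre-RCE:LoxP(EGFP), in which Cre is driven from the Sox10 gene and marks every cell with a Sox10 history, on C57BL/6j and mixed C57BL/6xCD1 backgrounds. The cells were purified by GFP or by CD140a and expanded in growth factors. The labels add the mouse model EAE to every library, although all are pup cultures. According to the methods the replicates came from different litters.

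PRC1 places a ubiquitin on a lysine of histone H2A through RING1A or RING1B, the products of Ring1 and Rnf2, in a pair with a PCGF protein. Canonical PRC1, with BMI1 or MEL-18 (the product of Pcgf2), also holds a CBX protein that binds H3K27me3, the mark laid down by EZH2, and a PHC protein that polymerizes and compacts chromatin. BMI1 is best known in the nervous system for the self-renewal of progenitors and for keeping Cdkn2a, which encodes the cell cycle inhibitors p16Ink4a and p19Arf, silent.

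Promoter windows in the RefSeq sequences of GRCm38.p6, which run from 250 bases before to 50 bases after a transcript start, were on hand for 8 of the 9 members (10 windows, 3 of them for Phc2), all but Cbx2. Of these, 9 held more CpG dinucleotides than the median of 7 over all 32851 windows. Bmi1 had 23, Cbx8 24, Rnf2 30, Cbx6 31, Cbx7 33 and Ring1 37, while Pcgf2 had 10. The letters of a GAS element, TTCNNNGAA, known from genes that respond to IFN-γ, occurred on either strand in 8.3% of all windows and in 0 of the 10 member windows. A repeat of GAAA with 2 bases in between, as in an interferon-stimulated response element, occurred in 3.44% of all windows and again in 0 of the 10. The 250 bases before the start are printed for Bmi1, the member that changed with EZH2i, and for the Phc2 starts of its 2 most abundant transcripts, with every CpG in capitals.
Bmi1, chr2:18676768-18677017, plus strand: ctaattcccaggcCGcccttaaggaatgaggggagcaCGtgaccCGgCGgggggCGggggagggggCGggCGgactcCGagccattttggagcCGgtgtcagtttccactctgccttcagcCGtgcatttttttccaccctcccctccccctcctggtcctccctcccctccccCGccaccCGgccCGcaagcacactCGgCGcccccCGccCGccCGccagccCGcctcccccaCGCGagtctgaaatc
Phc2 upstream start, chr4:128654452-128654701, plus strand: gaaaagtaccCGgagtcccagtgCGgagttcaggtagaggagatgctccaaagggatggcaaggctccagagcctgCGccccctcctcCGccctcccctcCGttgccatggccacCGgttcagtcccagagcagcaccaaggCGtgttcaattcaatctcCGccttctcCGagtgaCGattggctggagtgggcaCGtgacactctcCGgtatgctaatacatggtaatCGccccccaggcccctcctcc
Phc2 downstream start, chr4:128727321-128727570, plus strand: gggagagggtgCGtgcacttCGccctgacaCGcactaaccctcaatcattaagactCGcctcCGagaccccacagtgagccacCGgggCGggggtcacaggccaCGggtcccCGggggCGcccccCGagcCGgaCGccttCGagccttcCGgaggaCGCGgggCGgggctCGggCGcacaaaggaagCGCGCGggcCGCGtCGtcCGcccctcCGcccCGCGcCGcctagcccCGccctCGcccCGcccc
The Bmi1 stretch held 21 CpG, the stretch before the upstream Phc2 start 13, and the stretch before the downstream Phc2 start, 72.9 kb further along chromosome 4, held 34. None of the printed bases lay in an annotated exon.

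Library totals ran from 17403893 to 66546052 estimated counts, and a member was covered by 120 counts at the least (Cbx7) and 10551 at the most (Cbx6). OPC markers summed to 4304 to 8375 CPM (counts per 1000000 counts of a library, scaled with TMM factors) and microglial markers to 0.678 to 1.64 CPM, with Aif1 at or under 3 counts in every library. Astrocyte markers summed to 644 to 2137 CPM, and were highest in replicate 3 of each group. Irf1, an early IFN-γ response gene, rose from 11.98 ± 0.41 to 951 ± 116 CPM with IFN-γ and from 10.2 ± 0.3 to 993 ± 133 CPM in the presence of EZH2i (mean ± SD, n = 3), in the direction of the cytokine labels. The inhibitor acts on the EZH2 protein, so Ezh2 RNA does not check its labels.

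Levels between genes can be set side by side only per transcript length, as TPM (transcripts per 1000000 transcripts) within a library. In Ctr cells Phc2 led with 34.1 ± 3.6 TPM, followed by Bmi1 with 32.0 ± 6.7, Rnf2 with 28.5 ± 6.5 and Cbx6 with 24.4 ± 5.4 TPM (mean ± SD, n = 3). The ranges of neighbours among these 4 overlapped. These levels sum all transcripts of a gene, and short ones weigh heavily per length. Rnf2-202, of 570 bases and not annotated as coding, had 17.1, 24.4 and 10.2 TPM in Ctr, and the coding Rnf2-201 had 8.25, 10.3 and 11.6 TPM. Bmi1-203, of 464 bases and not annotated as coding, had 10.2, 13.3 and 9.25 TPM of the Bmi1 level. Ring1 (8.82 ± 3.18 TPM) and Cbx8 (8.35 ± 0.23 TPM) came next and overlapped each other, then Pcgf2 (5.36 ± 1.66 TPM) and Cbx2 (3.86 ± 1.02 TPM), which also overlapped, and Cbx7 was lowest at 1.66 ± 0.13 TPM. The one coding transcript of Cbx8, Cbx8-201, had 2.68, 3.26 and 3.42 TPM in Ctr, and shorter transcripts made up the rest. In every group the step from the lower of Rnf2 and Cbx6 to Ring1 and the step from the last but one gene to Cbx7 were without overlap. In EZH2i cells Bmi1 stood at the top with 59.5 ± 3.3 TPM, above Phc2 with 46.0 ± 11.98 TPM, although their ranges overlapped.

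**Figure D1:**
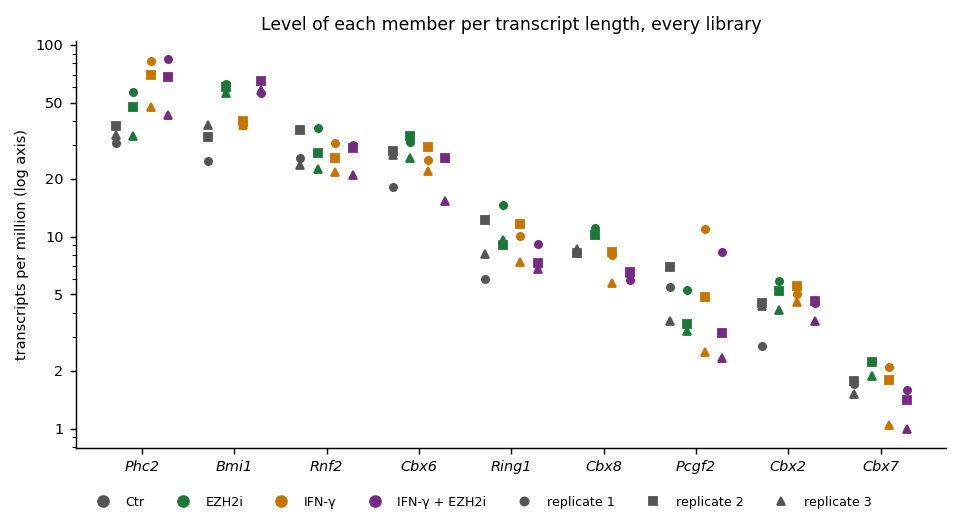
TPM of each member in every library on a log axis, with genes ordered by their Ctr mean, colours for the groups and symbols for the replicates. With all transcripts of a gene summed, Phc2, Bmi1, Rnf2 and Cbx6 form the upper range and Cbx7 stays lowest in every group, between 0.993 and 2.23 TPM.

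The PCGF, RING and CBX members each had a high and a low paralog. Among the PCGF subunits, Bmi1 exceeded Pcgf2 in all 12 libraries, by 3.49 to 25.1 times in TPM. Rnf2 exceeded Ring1 by 2.23 to 4.28 times. Among the CBX members, Cbx6 was highest and Cbx7, the CBX of many stem cells, lowest by mean TPM in every group.

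The members also differed in how tightly replicates of a group lay together. The coefficient of variation of the CPM values, averaged over the 4 groups, was 5.31% for Bmi1, 5.77% for Cbx2 and 7.76% for Rnf2. It reached 22.7% for Phc2 and 46.2% for Pcgf2, whose replicate 1 lay above replicates 2 and 3 in 3 of the 4 groups. The comparisons of Pcgf2 were therefore the least precise of the 9.

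The question behind the EZH2i comparisons is whether loss of PRC2 activity moves the genes of its partner complex. Bmi1 rose. Ctr libraries had 78.7, 81.7 and 82.6 CPM and EZH2i libraries 133, 118.9 and 118.9 CPM. With IFN-γ the values were 87.4, 84.5 and 89.7 CPM without the inhibitor and 131, 145 and 158 CPM with it. All 6 libraries with EZH2i were higher than all 6 libraries without it, so the groups did not overlap in either comparison.

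The fold was 1.53 without IFN-γ (log2 fold change 0.61, SE 0.10, edgeR quasi-likelihood test, Benjamini-Hochberg adjusted p = 0.0274), with a 95% interval from 1.31 to 1.78. With IFN-γ it was 1.66 (log2 fold change 0.73, SE 0.10, edgeR adjusted p = 0.0140), with an interval from 1.42 to 1.94. Bmi1 was the single member called of 9 in each comparison, against 0.405% and 0.353% of all tested genes. It was also the single member whose groups did not overlap, against 12.7% and 10.3% of all genes.

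Averaged over both IFN-γ states, Bmi1 rose 1.59-fold with an interval from 1.43 to 1.77 (log2 fold change 0.67, SE 0.07, edgeR adjusted p = 0.000696). Here again 1 of 9 members was called, against 2.22% of all genes. The interaction, that is the difference between the inhibitor's effect with and without IFN-γ, was 0.12 on the log2 scale for Bmi1 (interval from -0.19 to 0.43). By edgeR 0 of 9 members had an adjusted or an unadjusted p under 0.05 for the interaction, as had 0 by DESeq2, and 0% of all genes were called.

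**Figure D2:**
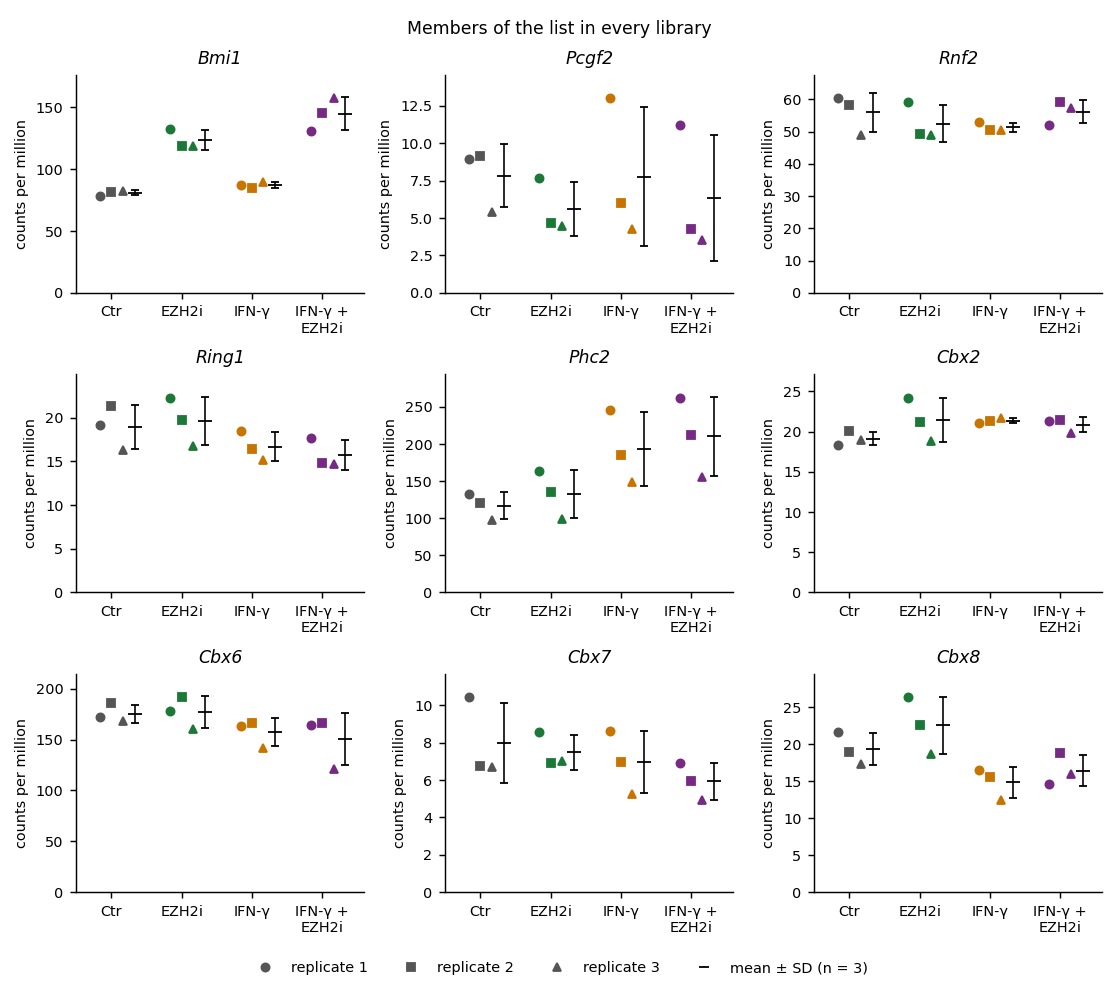
CPM of the 9 members in every library, with the mean and SD of each group of 3 as a bar beside the points. Bmi1 lies between 78.7 and 89.7 CPM in the 6 libraries without EZH2i and between 118.9 and 158 CPM in the 6 with it.

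The averaged rise of Bmi1 was called under all 20 alternatives, with log2 fold changes from 0.64 to 0.70 and adjusted p from 2.52e-16 to 0.0312. Each comparison alone was less firm. Against Ctr the call was lost in 10 of 21 alternatives, without any of the 6 libraries compared or replicate 2 of the combined group among them, with log2 fold changes from 0.55 to 0.64 and adjusted p up to 0.218. With IFN-γ it was lost in 6 of 21, among them without replicate 1, 2 or 3 of IFN-γ and without replicate 2 of the combined group, with log2 fold changes from 0.66 to 0.79 and adjusted p up to 0.215.

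Some markers of other cell types moved with the same treatment. Averaged over IFN-γ, the neuronal Snap25, Syt1 and Stmn2 rose by 1.13, 0.96 and 2.45 on the log2 scale (edgeR adjusted p = 0.00716, 0.0261 and 0.00268), and Mbp, a myelin gene, fell by 0.93 (edgeR adjusted p = 0.0225). The other neuronal markers, Rbfox3, Tubb3 and Gad1, did not pass the test (log2 fold changes of 1.14, 0.31 and 0.17, edgeR adjusted p = 0.0828, 0.659 and 0.920). Neuronal markers summed to 36.8 to 52.8 CPM in Ctr and 52.9 to 91.9 CPM in EZH2i, and endothelial markers to 9.43 to 17.2 and 19.6 to 35.5 CPM, both without overlap. With IFN-γ the neuronal sums overlapped, at 687 to 1286 CPM without the inhibitor and 954.5 to 1655 CPM with it. The endothelial sum was mostly Flt1, at 6.15 to 32.5 CPM over all libraries, as Cldn5 came next with at most 1.93 CPM. Flt1 did not pass the test on average (log2 fold change 1.03, edgeR adjusted p = 0.0585). The astrocyte list overlapped and none of its 6 genes passed the test. Its sum was nevertheless higher with EZH2i in every pair of libraries of the same number, with and without IFN-γ. It ran from 810.4 to 1431.5 CPM in Ctr and from 1112 to 2037 CPM in EZH2i, and from 644 to 1625 CPM in IFN-γ and from 1029.5 to 2137 CPM in the combined group. Markers of differentiated oligodendrocytes were lower with the inhibitor, from 1892.5 to 2325 CPM in Ctr and from 1112 to 1640.5 CPM in EZH2i, and OPC markers ran from 8111 to 8375 and from 6700.3 to 7100.2 CPM. Without the 4 libraries numbered 3, which had the most astrocyte RNA, the averaged rise of Bmi1 was 0.66 on the log2 scale (edgeR adjusted p = 0.0312). In the libraries left, astrocyte markers still summed to more with the inhibitor, at 810.4 and 841 CPM in Ctr and 1118.5 and 1112 CPM in EZH2i. With IFN-γ the sums were 860 and 644 CPM without it and 1338 and 1029.5 CPM with it. That fit can therefore not separate Bmi1 from the astrocyte markers. The part of these markers in the result was not tested, and in bulk libraries fewer cells of a type and less RNA per cell cannot be told apart.

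Bmi1 has several transcripts, and both of the abundant ones had higher means with EZH2i. Bmi1-201 begins at the printed RefSeq start and Bmi1-202 begins 3354 bases further in. Bmi1-202 held 56.9% to 78.7% of the gene's counts in Ctr and 56.7% to 77.3% in EZH2i libraries, and Bmi1-201 held 14.5% to 36.2% and 16.8% to 35.4%. Within libraries of the same number Bmi1-201 was higher with EZH2i in 3 of 3 pairs without IFN-γ, at 11.4, 13.5 and 29.9 CPM in Ctr and 22.3, 42.1 and 38.8 CPM in EZH2i. Bmi1-202 stood at 62.0, 63.1 and 47.0 CPM in Ctr and 103, 67.4 and 71.3 CPM in EZH2i, so its groups did not overlap, whereas those of Bmi1-201 did. These transcripts were looked at after the gene's values were seen and were not tested, and the split of reads between overlapping transcripts is an estimate.

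Pcgf2, the paralog of Bmi1, had lower means with EZH2i but did not pass the test. Its values were 8.94, 9.15 and 5.41 CPM in Ctr and 7.65, 4.69 and 4.48 CPM in EZH2i, and 13.0, 6.02 and 4.27 CPM in IFN-γ and 11.2, 4.28 and 3.53 CPM in the combined group. The groups overlapped in both comparisons, although Pcgf2 was lower with EZH2i in 3 of 3 pairs of the same number each time. The averaged log2 fold change was -0.39 with an interval from -1.14 to 0.36 (SE 0.34, edgeR adjusted p = 0.751).

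The ratio of Bmi1 to Pcgf2 within a library does not depend on library scaling. It was 4.54, 4.73 and 10.5 in Ctr and 11.9, 17.3 and 17.4 in EZH2i, and 3.49, 8.27 and 15.2 in IFN-γ and 6.72, 20.8 and 25.1 in the combined group. The ratio was thus higher in every EZH2i library than in every Ctr library, but overlapped between the IFN-γ groups, where it was higher with the inhibitor in 3 of 3 pairs of the same number. With EZH2i it was 2.24 times higher on average (log2 difference 1.16, two-sided exact permutation test within IFN-γ states, p = 0.035, adjusted p = 0.133 over 10 ratio tests, each with 400 arrangements). The smallest p this design allows is 0.005.

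The catalytic subunits showed no change past the test. Rnf2, which encodes RING1B, had 60.5, 58.4 and 49.0 CPM in Ctr and 59.1, 49.4 and 49.0 CPM in EZH2i, with all 12 libraries between 49.0 and 60.5 CPM. Its averaged log2 fold change with EZH2i was 0.02 with an interval of the fold from 0.893 to 1.15. Ring1, which encodes RING1A, lay between 14.7 and 22.3 CPM with an averaged log2 fold change of -0.02 and an interval of the fold from 0.835 to 1.17.

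The CBX readers likewise did not pass the test with EZH2i. Cbx6 had an averaged log2 fold change of -0.02 and an interval of the fold from 0.850 to 1.14, and Cbx2 one of 0.06 with 0.917 to 1.19. Cbx8 stood at 0.19 (fold interval from 0.947 to 1.37) and Cbx7, the rarest, at -0.16 (0.692 to 1.16). Phc2 was at 0.15 with a fold interval from 0.858 to 1.44. Over the 9 members the median log2 fold change was 0.02, beside -0.00 over all tested genes. A difference as large as the 1.59-fold rise of Bmi1, in either direction, lay inside the interval only for Pcgf2, whose fold ranged from 0.454 to 1.28.

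**Figure D3:**
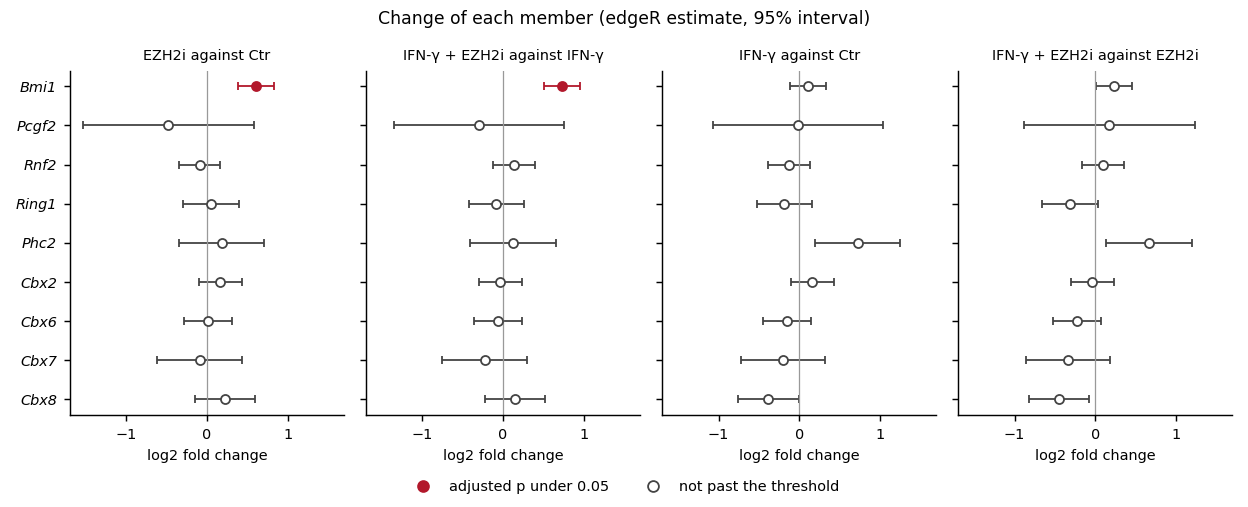
Log2 fold change of each member in 4 comparisons, as edgeR's estimate with its 95% interval; filled red points passed the threshold on the adjusted p. Bmi1 is the one filled point with EZH2i, at 0.61 and 0.73, and Phc2 is the highest point with IFN-γ, at 0.72 and 0.66.

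The IFN-γ comparisons ask whether 6 h of the cytokine moved the same genes. By edgeR 0 of 9 members passed the test with IFN-γ alone, against 8.75% of all tested genes, and 0 passed in the presence of EZH2i, against 8.07%. DESeq2 also called 0 in each. At an unadjusted p under 0.05 there were 2, Phc2 and Cbx8, and 3, with Bmi1 added. IFN-γ libraries did not overlap Ctr libraries for 5 of 9 members (Cbx2, Bmi1 and Phc2 above, Cbx6 and Cbx8 below), against 23% of all genes, while with EZH2i present 0 of 9 were apart, against 21.5%.

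Phc2, whose SAM domain polymerizes, had the largest difference. Its values were 133, 121 and 97.3 CPM in Ctr and 246, 185 and 148 CPM in IFN-γ, and 163, 136 and 99.2 CPM in EZH2i and 263, 213 and 155 CPM in the combined group. Replicate 1 was highest and replicate 3 lowest in every group. Libraries of the same number differed by 0.61 to 0.89 on the log2 scale without the inhibitor and by 0.64 to 0.69 with it, higher with IFN-γ in 3 of 3 pairs each time.

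The fold of Phc2 was 1.65 with IFN-γ alone (log2 fold change 0.72, SE 0.24, edgeR adjusted p = 0.104), with a 95% interval from 1.14 to 2.39. In EZH2i cells it was 1.58 (log2 fold change 0.66, SE 0.24, edgeR adjusted p = 0.148). EZH2i and combined libraries of the same number deviated together, and once the numbers entered the fit as a block this second comparison passed the test (log2 fold change 0.66, SE 0.08, edgeR adjusted p = 6.82e-05). In that blocked fit 2 of 9 members were called, Phc2 and Cbx8, against 19.3% of all genes. Neuronal markers moved with IFN-γ as well, and summed to 36.8 to 91.9 CPM without and 687 to 1655 CPM with it, mostly through Tubb3. Of the 6, Tubb3, Syt1 and Stmn2 rose in both comparisons (log2 fold changes of 5.10 and 5.21, 2.03 and 2.03, and 2.85 and 3.03, edgeR adjusted p from 1.06e-06 to 0.00372), while Rbfox3, Snap25 and Gad1 did not pass the test. OPC markers ran from 6700.3 to 8375 CPM without IFN-γ and from 4304 to 7130.1 CPM with it. Among them, Pdgfra and Cspg4 fell in both comparisons (log2 fold changes from -1.20 to -1.07, edgeR adjusted p from 0.00245 to 0.0141). Gpr17 fell past the test only in EZH2i cells (-1.22, edgeR adjusted p = 0.0234), and Ptprz1, Olig1, Olig2 and Sox10 did not pass it. The part of neuronal and OPC markers in the result was not tested.

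The 2 main Phc2 transcripts differed in level and direction. Phc2-201 begins at the upstream start printed above and Phc2-202 within 14 bases of the downstream one. Phc2-202 had 106, 104 and 85.9 CPM in Ctr and 219, 172 and 138 CPM in IFN-γ, and 121, 115 and 84.3 CPM in EZH2i and 219, 196 and 145 CPM in the combined group. Its groups were apart in both comparisons.

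Phc2-201 was the minor form and had lower means with IFN-γ. It had 20.2, 10.8 and 8.34 CPM in Ctr and 15.7, 7.02 and 4.97 CPM in IFN-γ, and 35.1, 15.2 and 11.5 CPM in EZH2i and 31.8, 11.1 and 5.73 CPM in the combined group. Its share of the gene's counts was 15.1%, 8.96% and 8.57% in Ctr and 6.36%, 3.80% and 3.35% in IFN-γ, and 21.5%, 11.2% and 11.6% in EZH2i and 12.1%, 5.24% and 3.69% in the combined group. Every pair of the same number was lower with IFN-γ, in level and in share. The levels overlapped between groups in both comparisons, and the shares overlapped in EZH2i cells. The transcripts were chosen after their values were seen and were not tested, and reads in their shared exons are divided by estimate.

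**Figure D4:**
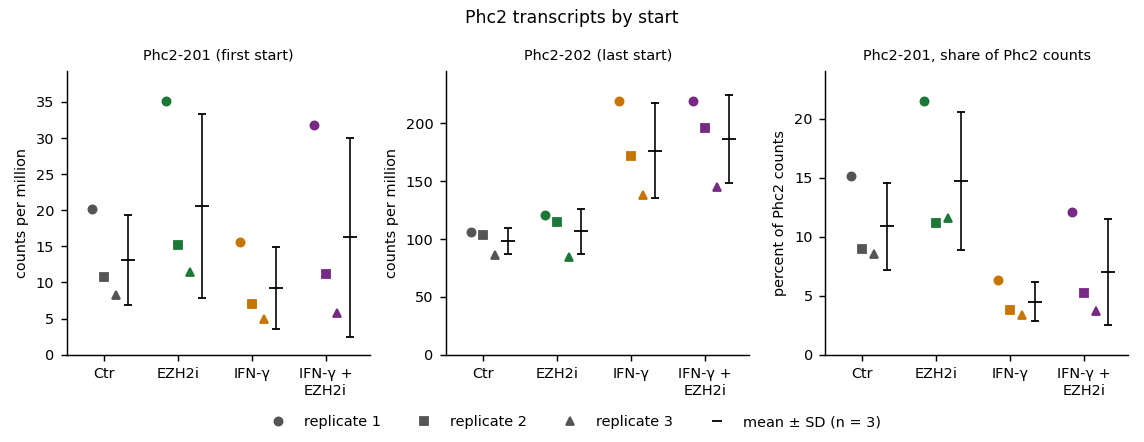
CPM of Phc2-201 (upstream start) and Phc2-202 (downstream start) and the share of Phc2-201 in the counts of the gene, by group, with each library as a point and the mean and SD beside it. Phc2-202 lies at 138 CPM or more in all libraries with IFN-γ and at 121 CPM or less in all without, while the share of Phc2-201 lies between 3.35% and 12.1% with IFN-γ and between 8.57% and 21.5% without.

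Cbx8 was lower with IFN-γ. It had 21.7, 18.97 and 17.4 CPM in Ctr and 16.5, 15.6 and 12.4 CPM in IFN-γ, which did not overlap, and 26.4, 22.6 and 18.7 CPM in EZH2i and 14.7, 18.8 and 15.95 CPM in the combined group, which did. The log2 fold change was -0.38 without EZH2i (SE 0.17, edgeR adjusted p = 0.253) and -0.45 with it (SE 0.17, edgeR adjusted p = 0.166). With the replicate block the latter was -0.43 (SE 0.12, edgeR adjusted p = 0.0257).

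Cbx2 and Cbx8 are neighbours on chromosome 11, 5034 bases apart, so their ratio compares adjacent paralogs. In TPM it was 0.326, 0.553 and 0.505 in Ctr and 0.627, 0.669 and 0.794 in IFN-γ, and 0.529, 0.510 and 0.404 in EZH2i and 0.754, 0.708 and 0.564 in the combined group. These ratios sum all transcripts, and for Cbx8 they include the short Cbx8-202 and Cbx8-203, not annotated as coding. In Ctr the coding Cbx2-201 had 2.58, 3.68 and 4.13 TPM beside 2.68, 3.26 and 3.42 TPM for the coding Cbx8-201. The summed ratio was higher in all 6 libraries with IFN-γ than in all 6 without. For the coding pair alone this separation did not hold. Cbx2-201 and Cbx8-201 had 4.13 and 3.42 TPM in Ctr replicate 3. Their ratio was lower in replicate 2 of the combined group, at 4.34 and 3.70 TPM. The coding pair was not tested. The mean rise of the summed ratio was 1.47-fold (log2 difference 0.56, two-sided exact permutation test, p = 0.005, the smallest the design allows, adjusted p = 0.05 over 10 tests), which sits on the threshold and not below it.

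The remaining ratios did not pass after adjustment. Phc2 to its paralog Phc1 was 1.82 to 3.06 in Ctr, 3.63 to 3.71 in EZH2i, 2.98 to 5.74 in IFN-γ and 3.48 to 6.67 in the combined group. It was 1.67 times higher with IFN-γ (two-sided exact permutation p = 0.04, adjusted p = 0.133) and 1.38 times higher with EZH2i (p = 0.085, adjusted p = 0.213). Rnf2 to Ring1 differed by -0.00 on the log2 scale with EZH2i and 0.05 with IFN-γ, and Cbx6 to Cbx7 by 0.01 and 0.18, with exact permutation p from 0.285 to 1.

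**Figure D5:**
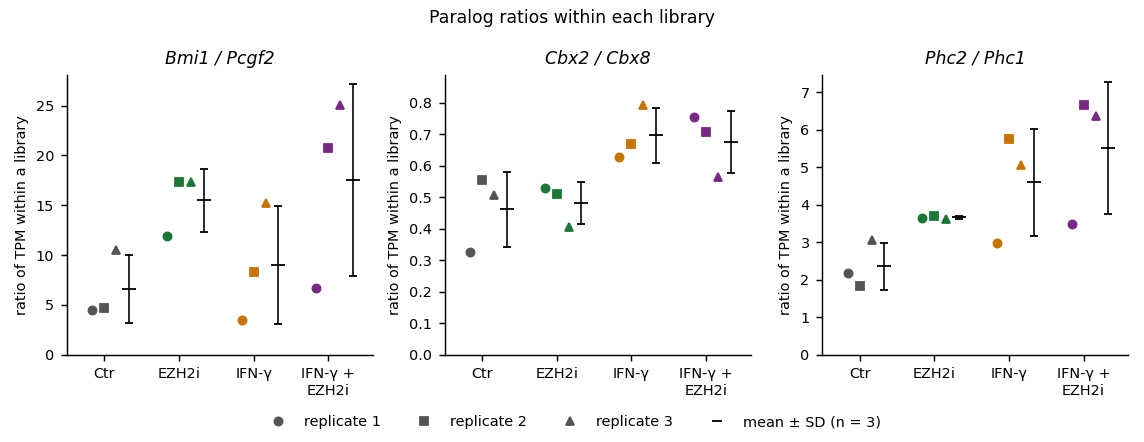
Ratio of TPM between paralogs within each library for Bmi1 to Pcgf2, Cbx2 to Cbx8 and Phc2 to Phc1, by group, with the mean and SD of 3 libraries beside the points. Bmi1 to Pcgf2 lies at 4.54 to 10.5 in Ctr and at 11.9 to 17.4 in EZH2i, and Cbx2 to Cbx8 lies at 0.326 to 0.553 without IFN-γ and at 0.564 to 0.794 with it.

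The other members had smaller differences with IFN-γ. Cbx6 lay between 168 and 186 CPM in Ctr and between 142 and 167 CPM in IFN-γ (log2 fold change -0.16, edgeR adjusted p = 0.630). Cbx2 lay between 18.4 and 20.0 CPM and between 21.0 and 21.7 CPM (log2 fold change 0.16, edgeR adjusted p = 0.569), and Bmi1 had a log2 fold change of 0.11 without and 0.23 with EZH2i (edgeR adjusted p = 0.667 and 0.260). Ring1, Rnf2, Cbx7 and Pcgf2 had log2 fold changes of -0.18, -0.13, -0.20 and -0.01 with IFN-γ alone.

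The genes around the members bear on what their counts hold. Bmi1 starts 786 bases after the end of Commd3, a gene of the COMMD family on the same strand. Commd3 had 50.2, 56.0 and 51.4 CPM in Ctr and 64.9, 66.6 and 60.5 CPM in EZH2i, and 49.0, 52.0 and 58.1 CPM in IFN-γ and 74.4, 74.8 and 79.9 CPM in the combined group, with no overlap either time. Averaged over IFN-γ it rose by 0.40 on the log2 scale (SE 0.07, edgeR adjusted p = 0.0138), beside 0.67 for Bmi1, a call lost in 1 of 20 alternatives. Without IFN-γ its log2 fold change was 0.28 (edgeR adjusted p = 0.484). With IFN-γ its log2 fold change was 0.53 (edgeR adjusted p = 0.0657, and 0.00441 with the replicate block).

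Cbx6 shares 10342 bases and exons of the same strand with Npcd, which reached at most 1.15 CPM. Cbx7 overlaps by 100 bases Apobec3, which encodes an antiviral deaminase on the opposite strand and rose by 2.38 on the log2 scale with IFN-γ (edgeR adjusted p = 0.00128). Rnf2 overlaps Trmt1l by 158 bases on opposite strands, and an unspliced model on its own strand, Gm36527, lies over 3029 bases outside its exons. Whether the strand was used in the quantification is not given in the sources used here, so counts in these stretches, the low ones of Cbx7 above all, are uncertain.

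Among 33 other PRC1 genes, which span the variant complexes and their partners, 0 passed edgeR's test with EZH2i in either comparison or on average. At an unadjusted p under 0.05 there was 1 (Phc3) without IFN-γ, 0 with it and 1 (Phc3) on average. DESeq2 called 0, 0 and 1, the last again Phc3. The median log2 fold change of the list was -0.06. With IFN-γ alone 1 rose and 0 fell, against 8.75% of all genes called, and in EZH2i cells 1 rose and 1 fell, against 8.07%, or 3 and 3 with the replicate block, against 19.3%. Scml2, a sex comb protein named after its values were seen, ran from 3.84 to 5.19 CPM in Ctr and from 2.26 to 3.01 CPM in IFN-γ, and from 3.70 to 4.29 CPM in EZH2i and from 1.58 to 2.66 CPM in the combined group, with no overlap. Its log2 fold changes of -0.83 and -0.79 did not pass edgeR's test (adjusted p = 0.0550 and 0.0770). DESeq2 called it in both, as did the replicate block (edgeR adjusted p = 0.00669 in the second).

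Pcgf5, a PCGF subunit of variant PRC1 and so a counterpart of Bmi1 without a CBX, was the gene that rose both times. It had 15.2, 13.8 and 17.3 CPM in Ctr and 26.6, 28.7 and 30.4 CPM in IFN-γ, and 15.9, 16.3 and 19.1 CPM in EZH2i and 24.1, 29.2 and 31.8 CPM in the combined group. The groups did not overlap. Its log2 fold change was 0.88 (SE 0.15, edgeR adjusted p = 0.00194) and 0.73 (SE 0.15, edgeR adjusted p = 0.00717), the latter call being lost in 1 of 21 alternatives. For EZH2i it was 0.14 without and -0.01 with IFN-γ.

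Scml4, a relative of the Scm proteins that join PRC1, fell by 0.71 on the log2 scale with IFN-γ in EZH2i cells (SE 0.19, edgeR adjusted p = 0.0394), from 18.7 ± 2.5 to 11.4 ± 2.7 CPM (mean ± SD, n = 3). Without the inhibitor its log2 fold change was -0.39 (edgeR adjusted p = 0.304). The call in EZH2i cells was lost in 11 of 21 alternatives. With the replicate block Scml4 was called lower in both comparisons.

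Of the 5 genes for removal of ubiquitin from H2A, the opposite of the PRC1 reaction, 2 rose with IFN-γ alone, 1 with IFN-γ in EZH2i cells, and none fell, against 8.75% and 8.07% of all genes called. Asxl3, a cofactor of the deubiquitinase BAP1, rose from 9.35 ± 1.66 to 22.1 ± 5.9 CPM (log2 fold change 1.23, SE 0.22, edgeR adjusted p = 0.00366) and in EZH2i cells from 7.62 ± 1.80 to 17.9 ± 0.8 CPM (log2 fold change 1.23, edgeR adjusted p = 0.00379). Asxl1, of the same family, rose from 61.0 ± 6.2 to 83.9 ± 9.2 CPM with IFN-γ alone (log2 fold change 0.46, SE 0.12, edgeR adjusted p = 0.0280), a call lost in 8 of 21 alternatives. With EZH2i 0 of the 5 passed by edgeR or by DESeq2, and 1 (Asxl1) had an unadjusted p under 0.05, on average and in the presence of IFN-γ.

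Genes that set or remove H3K27 methylation did not pass the test. For the 6 PRC2 core genes edgeR called 0 in each comparison, DESeq2 0, and Ezh2 alone had an unadjusted p under 0.05, on average over IFN-γ (log2 fold change -0.30, SE 0.12, adjusted p = 0.284). Ezh2 stood at 49.4 ± 5.2 CPM in Ctr, 39.6 ± 7.7 in EZH2i, 46.6 ± 4.8 in IFN-γ and 38.1 ± 5.3 CPM in the combined group. Of the H3K27 demethylases Kdm6a and Kdm6b 0 passed by either tool. Kdm6a had an unadjusted p under 0.05 with IFN-γ in both comparisons, and in EZH2i cells it was called with the replicate block. Kdm6b had one with EZH2i on average (log2 fold change -0.57, edgeR adjusted p = 0.395). The HP1 genes Cbx1, Cbx3 and Cbx5, chromodomain readers of H3K9 methylation, had averaged log2 fold changes from -0.06 to -0.02 with EZH2i, and edgeR and DESeq2 called 0, with 0 at an unadjusted p under 0.05.

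Cdkn2a, the classical target of BMI1-containing PRC1, rose with the inhibitor on average, as Bmi1 did. It had 11.7, 11.01 and 7.87 CPM in Ctr and 26.3, 38.5 and 18.3 CPM in EZH2i, and 9.01, 13.0 and 8.02 CPM in IFN-γ and 38.8, 39.0 and 22.3 CPM in the combined group. All libraries with the inhibitor were above all without. The averaged fold was 3.02 (log2 fold change 1.59, SE 0.22, edgeR adjusted p = 0.00274). With IFN-γ the log2 fold change was 1.74 (edgeR adjusted p = 0.0401, a call lost in 13 of 21 alternatives). Without it the value was 1.45 (edgeR adjusted p = 0.0816), which was called in 4 of 21 alternatives, the replicate block among them. The counts of the gene do not separate the p16Ink4a and p19Arf transcripts.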

How the data were processed

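RNA-seq libraries of 12 OPC cultures (4 groups of 3) were prepared with a stranded total RNA kit. Per the submitters' processing notes, the authors quantified transcripts with Salmon 0.8.2, and deposited for each library estimated counts and TPM of 141862 transcripts, whose identifiers match GENCODE M21 on GRCm38. STAR and DESeq2 are also named, without a version. The authors' tables of log2 fold changes and p-values were not used.

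The members and the gene lists were chosen with earlier results of these data known. Named were all members, listed partner genes that passed a test, Cdkn2a, Irf1 and the neighbours of the members. The estimated counts of a gene's transcripts were added up and rounded. Genes passing filterByExpr were fitted in edgeR 4.0.16 (R 4.3.3) with TMM factors, group as the only term and all 12 libraries, and tested by quasi-likelihood, with p adjusted after Benjamini and Hochberg over 18995 genes and a threshold of 0.05. CPM values use the TMM library sizes. Comparisons of IFN-γ and of EZH2i share libraries with each other, as Ctr enters both EZH2i against Ctr and IFN-γ against Ctr. Paralog ratios of TPM were tested by exact permutation within strata. The fit was tested on simulated data.

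Library totals differed by up to 3.82 times, and replicates differed by more than sampling noise. Libraries of different numbers came from different litters, and whether the same number marks a shared litter across groups is not stated. The deviations of same-numbered libraries from group means correlated at 0.493 to 0.642 between IFN-γ and the combined group and at 0.496 to 0.621 between EZH2i and the combined group, so for these comparisons the blocked value is given where it changes a call. Between Ctr and EZH2i they were 0.441, 0.0467 and 0.495, and between Ctr and IFN-γ 0.4895, 0.0854 and 0.544, and blocked values stand only in the section on processing. The values reported are otherwise unpaired. Alternatives were DESeq2 1.42.0, RLE factors, other low count filters, a replicate block, length-scaled TPM, only the libraries compared, removal of mitochondrial and rRNA genes, each library left out and, chosen after seeing the data, the 4 libraries numbered 3 left out.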

Additional observations from a re-analysis of the deposited data

How the results depend on the processing

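No direction of a called value was reversed. Counting members past the threshold, EZH2i against Ctr gave 0 in place of 1 with length-scaled TPM, with only the 6 libraries compared and without the 4 libraries numbered 3, and 0 to 1 when each library was left out. With IFN-γ present, EZH2i gave 0 with only the 6 libraries and without the libraries numbered 3, and 0 to 1 when each library was left out. Except with length-scaled TPM, fewer libraries entered these fits. Beyond that the cause was not tested.

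With the replicate block, 2 members (Phc2 and Cbx8) passed in each IFN-γ comparison in place of 0. In IFN-γ against Ctr, where replicate 2 correlated at only 0.0854, blocked log2 fold changes were 0.70 for Phc2 (edgeR adjusted p = 4.32e-05) and -0.39 for Cbx8 (0.0417). The block changed no other member's call. Outside the members it also called Kdm6a and, of the other PRC1 genes, 3 higher and 2 lower (Scml2 and Scml4) in IFN-γ against Ctr. In EZH2i against Ctr it called Cdkn2a higher (log2 fold change 1.39, edgeR adjusted p = 0.000236). In the averaged EZH2i comparison it called Ezh2 (log2 fold change -0.31, edgeR adjusted p = 0.0131), Kdm6b (-0.54, 0.0316) and 2 other PRC1 genes, all lower. In TMM-normalized CPM the log2 differences were 0.48 for Cbx2 to Cbx8 with IFN-γ, 0.49 for Phc2 to Phc1 with EZH2i and 0.73 with IFN-γ, and their adjusted exact permutation p of 0.025, 0.0333 and 0.025 passed the threshold. The cause was not tested.

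Over all genes, EZH2i against Ctr called 77, beside 308 by DESeq2, 121 without a filter, 29 with at least 10 counts in every library, 771 with the block, 49 with length-scaled TPM, 33 with only the 6 libraries, 4 without the libraries numbered 3 and 11 to 83 with each library left out. EZH2i with IFN-γ called 67, beside 264 by DESeq2, 11 with at least 10 counts, 748 with the block, 34 with length-scaled TPM, 7 with only the 6 libraries, 3 without the libraries numbered 3 and 10 to 65 with each library left out. The average called 422, beside 839, 238, 2317 and 281 by the same first 4 of these, 157 without the libraries numbered 3 and 245 to 415 with each library left out. IFN-γ alone called 1663, beside 4032 with the block and 949 without the libraries numbered 3, and IFN-γ in EZH2i cells 1533, beside 3661 and 808. With a replicate left out, the ratio tests cannot go below an exact permutation p of 0.0556.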

Other observations

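Over 14555 genes that averaged 1 CPM or more and had counts in every library, the genes whose log2 CPM followed Bmi1 most closely across the 12 libraries were Tbx15, a T-box transcription factor (Pearson's r = 0.95), Igf2bp3, a fetal RNA-binding protein (0.94), and Greb1l (0.94). Tbx15 ran from 0.106 to 12.2 CPM and Igf2bp3 from 1.88 to 42.9 CPM, and averaged over IFN-γ they rose with EZH2i by 5.02 and 2.83 on the log2 scale (edgeR adjusted p = 9.66e-05 and 0.000229). Greb1l rose by 0.46 (edgeR adjusted p = 0.0368). All were picked for following Bmi1, itself higher with EZH2i, over the same libraries, so their rise followed from the selection. Pcgf2 was followed most closely by Rai1 (0.99), Bcl9l (0.98) and Wasf2 (0.98), none of which passed the test with EZH2i. These correlations are descriptions over libraries that share group labels and, among same-numbered ones, possibly a litter.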
